A study of Mus musculus with 3 samples.

Results

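The nerve cells of the embryonic tail were the 137 cells to which the deposited tail table gives cluster code 10, of 2052 tail cells in all. They made up 6.68% of that library (95% Clopper-Pearson interval 5.63 to 7.84%). The series held 3 single-cell libraries with 15827 cells, 1 library per group. The tail came from E14.5 embryos of ScxGFP mice, which carry a green fluorescent reporter of the tendon gene Scx, on a C57BL6 background and of both sexes. The other libraries came from mouse embryonic stem cells carrying the same reporter, given a BMP inhibitor and a Wnt agonist until day 6. They were embryoid bodies at the day 6 paraxial mesoderm stage and a day 10 culture. That culture was directed towards tendon with TGFβ1, the hedgehog agonist SAG and FGF2 from day 6. The number of embryos pooled for the tail was not given in the sources used here, so no spread between embryos could be measured. Each interval below covers counting error only, no p-value was computed, and every comparison between clusters describes cells of 1 library. Because the clusters were made from the same genes, a contrast of the nerve cells with the rest restates in part how they were found.

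Nerve cells held a median of 11811 UMIs (unique molecular identifiers, 1 for each captured transcript), from 3637 to 38209, and a median of 4394 detected genes. The 1915 other tail cells held a median of 13692 UMIs. Levels are given as CPM, the summed UMIs of a gene in a group scaled to 1000000 UMIs of that group. A gene was compared when at least 10% of cells in either group held a UMI of it, and was called at a ratio of at least 2 or of at most 0.5. The share of tested genes called in each direction is given with each comparison.

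A neuron forms from a dividing progenitor that leaves the cell cycle, switches off the repressor Rest and switches on its own tubulins, RNA-binding proteins and synaptic genes. In the dorsal spinal cord, neurons that use the inhibitory transmitters GABA and glycine are known to need the transcription factors Pax2, Lhx1 and Lhx5. Those that use the excitatory transmitter glutamate are known to need Tlx3 and Lmx1b, and the factor Lbx1 is shared by both lineages. Peripheral neurons of the sensory ganglia carry Isl1 and Prph.

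Both marker genes of the label were found in nearly every cell. Rtn1, a reticulon of the neuronal endoplasmic reticulum, was found in 137 of 137 nerve cells, with 7, 28 and 115 UMIs in the lowest, median and highest cell. Nrxn2, a presynaptic adhesion protein, was found in 130 of 137 cells, with 0, 4 and 14 UMIs. Nrxn2 stood at 315 CPM in nerve cells (289 to 343) and at 8.26 CPM in the other tail cells. No other cluster came near this level, the next being code 5 at 30.5 CPM. Nerve cells, 6.68% of the tail, held 68.4% of its Nrxn2 UMIs and 86.9% of its Rtn1 UMIs.

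**Figure D1:**
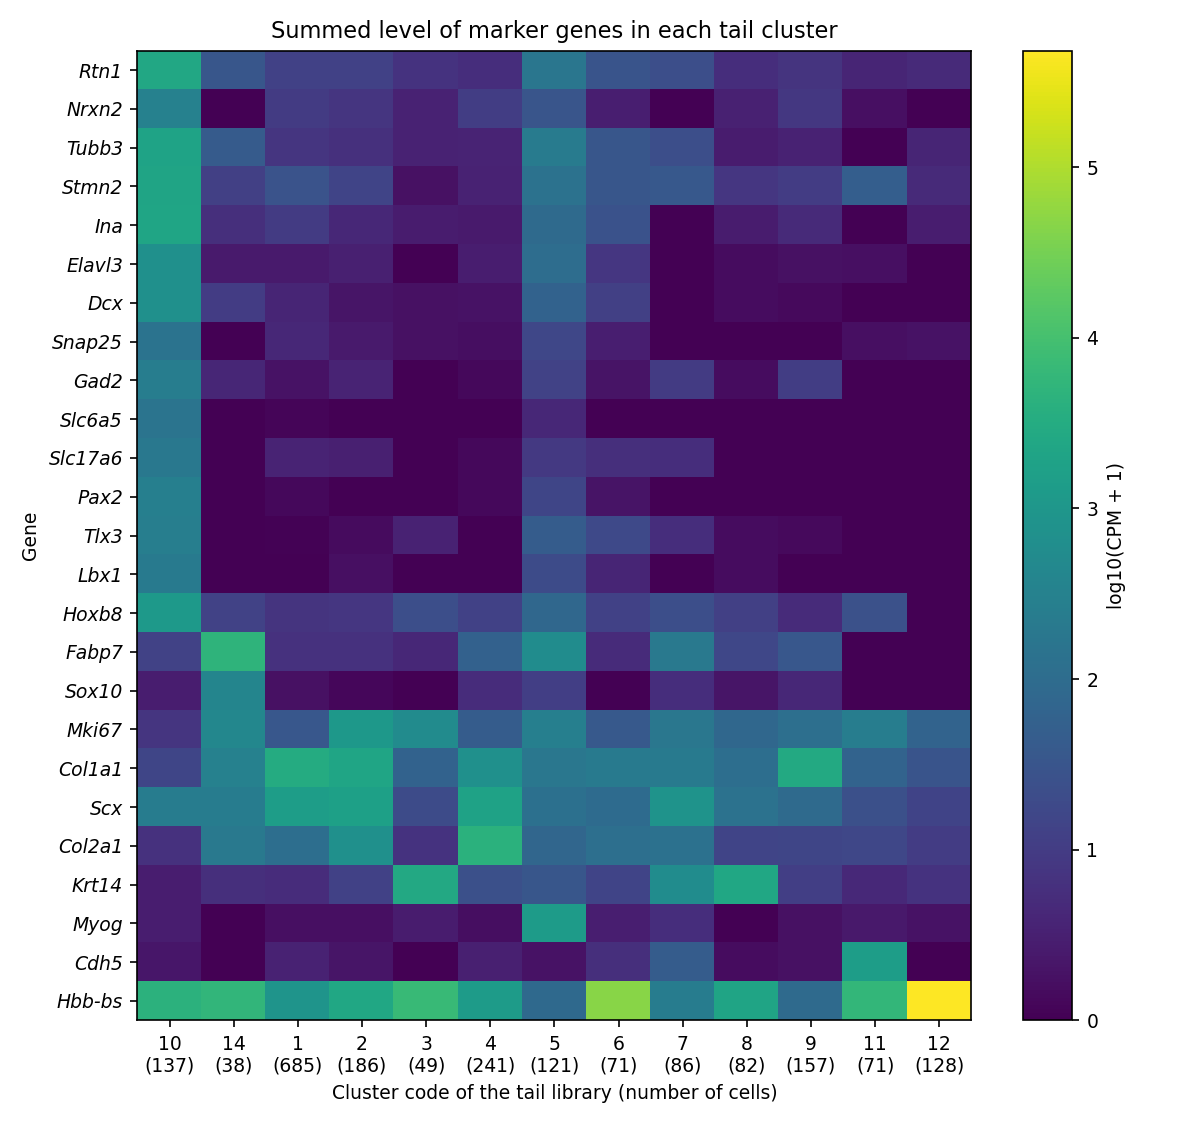
Level of 25 marker genes, as log10(CPM + 1) of summed UMIs, in each of the 13 tail clusters, with code 10 (nerve cells) and code 14 drawn first. Rtn1, Nrxn2, Tubb3 and the other neuron genes were highest in code 10 and next highest in code 5 for most of them, while Fabp7 and Sox10 were highest in code 14.

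Markers of connective tissue, cartilage, skin and muscle were low in nerve cells. All 13 connective tissue genes fell below 0.5 of the level elsewhere, with Col1a1 at 14.8 against 1772 CPM. All 6 tested cartilage genes, 4 skin genes and 2 muscle genes were also called lower, and Col2a1 stood at 5.33 against 639 CPM. The summed level of the 7 skin genes was 5.93 CPM in nerve cells, against 9.18 to 7222 CPM in the other clusters, and that of the 6 endothelial genes was 4.15 CPM, with Cldn5, Tie1 and Emcn at 0. Hbb-bs, a beta-globin of red cells, stood at 4410 CPM against 20429 CPM elsewhere, and a pair of nerve cells, 2 of 137, held 96.3% of all haemoglobin UMIs in the group. With the blood clusters left out of the comparison Hbb-bs was at a ratio of 2.56, and without that pair of cells as well, an alternative chosen after seeing the data, it was at 0.0617 (0.0528 to 0.0715). After each cell was thinned to 3000 UMIs, 33.6% of nerve cells held an Hbb-bs UMI, against 27.0% of the other tail cells outside the blood clusters and 100% of blood cells. Scrublet called 1 of the 137 cells a doublet, and 9 of all 2052 tail cells at an expected rate of 6%. Of the nerve cell barcodes, 1 also occurred in the culture library.

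Some cells outside the cluster carried the same genes. Of 10 neuron genes counted in each cell (Tubb3, Elavl3, Ina, Rtn1, Stmn2, Dcx, Nrxn2, Elavl4, Stmn3 and Mapt, chosen after their values were seen), every nerve cell held at least 8. Among the 1915 other cells, 38 held 5 or more, and 29 of these lay in code 5, the cluster highest in muscle genes. These 29 cells held a median of 0 UMIs over 7 muscle genes, against a median of 51 in the other 92 cells of code 5, and 26 of them held none. Their median depth was 4347 UMIs, and 12 of them lay below the shallowest nerve cell. Tlx3 was found in 11 of the 29, Pax2 in 10 and Isl1 in 4. At 8 or more of the 10 genes, as in every nerve cell, only 20 other cells qualified, 15 of them in code 5. With all 38 cells added, the share would be 8.53% in place of 6.68%. The folds over the other tail cells given below include these cells in the comparison level. With the 38 cells left out, an alternative chosen after seeing the data, 70 of 226 named genes called higher moved by over 1.5 times, all of them upwards. Tubb3 then stood at 284-fold in place of 88.7-fold, Rtn1 at 349-fold in place of 117-fold and Nrxn2 at 49.6-fold in place of 38.1-fold. A rise is largely built into that choice, since the cells were picked for holding neuron genes, Tubb3, Rtn1 and Nrxn2 among them.

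Of 11448 genes tested against the other tail cells, 2406 were called higher in nerve cells (21.0%) and 2598 lower (22.7%). The genes of the neuron cytoskeleton stood well above that background, with 18 of 18 tested genes higher and a median ratio of 44.4. Tubb3, the neuronal beta-tubulin, stood at 1989 CPM (1922 to 2057) against 22.4 CPM, a ratio of 88.7 (81.6 to 96.5). Ina, which encodes the neurofilament protein alpha-internexin, was found in every nerve cell at 3 to 111 UMIs and was 186-fold higher (166 to 208). Stmn2, a regulator of microtubule growth in axons, was 78.2-fold higher (72.4 to 84.6), and Dcx, a microtubule protein of young neurons, was 115-fold higher (98.3 to 135). Nefl and Nefm, the light and medium neurofilament chains of more mature axons, were present in only 68 and 77 of the 137 cells. Nefh, the heavy chain, was found in 3 cells.

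RNA-binding proteins of neurons were called higher in 15 of 15 cases, with a median ratio of 41.2. Elavl3 was found in all 137 cells and was 78.8-fold higher (69.1 to 90.2). Celf3 was 137-fold higher (100 to 193). Rbfox3, which encodes the NeuN antigen of differentiated neurons, was found in 115 cells and was 81.2-fold higher (61.2 to 109). The splicing factors Srrm3 and Srrm4, which promote the inclusion of neuronal microexons, were 110-fold and 41.2-fold higher.

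Factors of newly formed neurons were called higher in 16 of 16 tested genes. Myt1l, a zinc finger repressor of other cell fates, was 215-fold higher (158 to 299) and found in 111 cells. Scrt1 was 134-fold higher (105 to 172) and found in 129 cells. Sox11 was among the most abundant, at 3102 against 378 CPM, and was found in all 137 cells. The proneural genes that act before the last division were nearly silent, with Neurog2 at 7.11 CPM and Neurog1 at 0. Neurog2 was still above its level over the whole tail, 3.29 CPM, and stood highest in code 5, at 42.0 CPM.

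All 20 cell cycle genes were called lower. Mki67 gave 11 single UMIs in 11 of the 137 cells, 6.52 CPM against 256 CPM elsewhere, and Top2a stood at 2.37 against 290 CPM. Plk1 had no UMI in 137 cells, which allows a share of cells with a UMI of up to 2.19%. Genes of neural progenitors were mostly as low, with Sox2 at 3.56 CPM, Hes5 at 1.78 CPM and Nes at 24.3 against 114 CPM. Of the 6 tested genes of that list 4 were called lower and 1 higher, namely Dll3, an inhibitor of Notch signalling in newborn neurons, at 8.59-fold (6.58 to 11.2).

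Synaptic genes ranged more widely. Of 20 tested genes of synaptic vesicles and release, 18 were called higher, with a median ratio of 31.1. Rab3c, a vesicle GTPase, stood at 451 against 5.06 CPM and was found in 129 cells. Snap25, a membrane component of the fusion complex, was found in 108 cells at 144 CPM. The vesicle proteins Syn2 and Cplx1 were found in only 12 and 9 cells, and Stx1a and Cplx2 were not called, at ratios of 1.38 (0.861 to 2.11) and 0.939 (0.618 to 1.37). Among receptors, 16 of 17 tested genes were called higher. Gria2, an AMPA receptor subunit, was found in 125 cells at 321 CPM, while Grin1, the obligate NMDA receptor subunit, was found in 19 cells at 13.0 CPM. Glra2, a glycine receptor subunit, was found in 46 cells and was 94.5-fold higher (55.0 to 173). Of the sodium channels, Scn3a was highest with 207 CPM and 118 cells, followed by Scn2a with 73.5 CPM and 63 cells and Scn8a with 42.1 CPM and 52 cells. Of 15 tested channel genes, 14 were called higher.

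Several genes that replace a general form in neurons were measured beside it. Ptbp1, the splicing repressor of non-neuronal cells, was lower at 36.8 against 160 CPM, whereas Ptbp2 was higher at 342 against 75.2 CPM. Actl6b, the neuronal actin-like subunit of the BAF chromatin remodeller, stood at 148 against 0.809 CPM, a ratio of 183 (120 to 291). Its general counterpart Actl6a was not called, with a ratio of 1.25 (1.10 to 1.42). Phf10, another general BAF subunit, was lower at 0.453 (0.335 to 0.599), while its neuronal counterparts Dpf1 and Dpf3 were 13.7-fold and 13.8-fold higher. Kif5b, the general kinesin heavy chain, was at a ratio of 1.16 (1.07 to 1.26), and the neuronal Kif5c was 51.0-fold higher (46.0 to 56.7). General forms were thus called lower for Ptbp1, Phf10 and Eno1 but stayed inside 2-fold for Actl6a, Elavl1 and Kif5b. Smarca4, a further gene of this list, was called higher at 3.19-fold, and Smarca2 was not called at 0.825. Of the 21 tested genes of the list, 11 were called higher and 4 lower. Ss18 stood at 0.541 (0.417 to 0.691), and at 0.461 and 0.488 under other scalings. Of 10 tubulins, 6 were called higher and 3 lower, and Tubb6 had no UMI in nerve cells. Tubb5 was called at 2.14-fold (2.09 to 2.20) but stood at 1.83 and 1.94 under other scalings. Tuba1a was the most abundant at 5822 CPM, and reads that align to several near-identical alpha-tubulins were left out of its count.

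**Figure D2:**
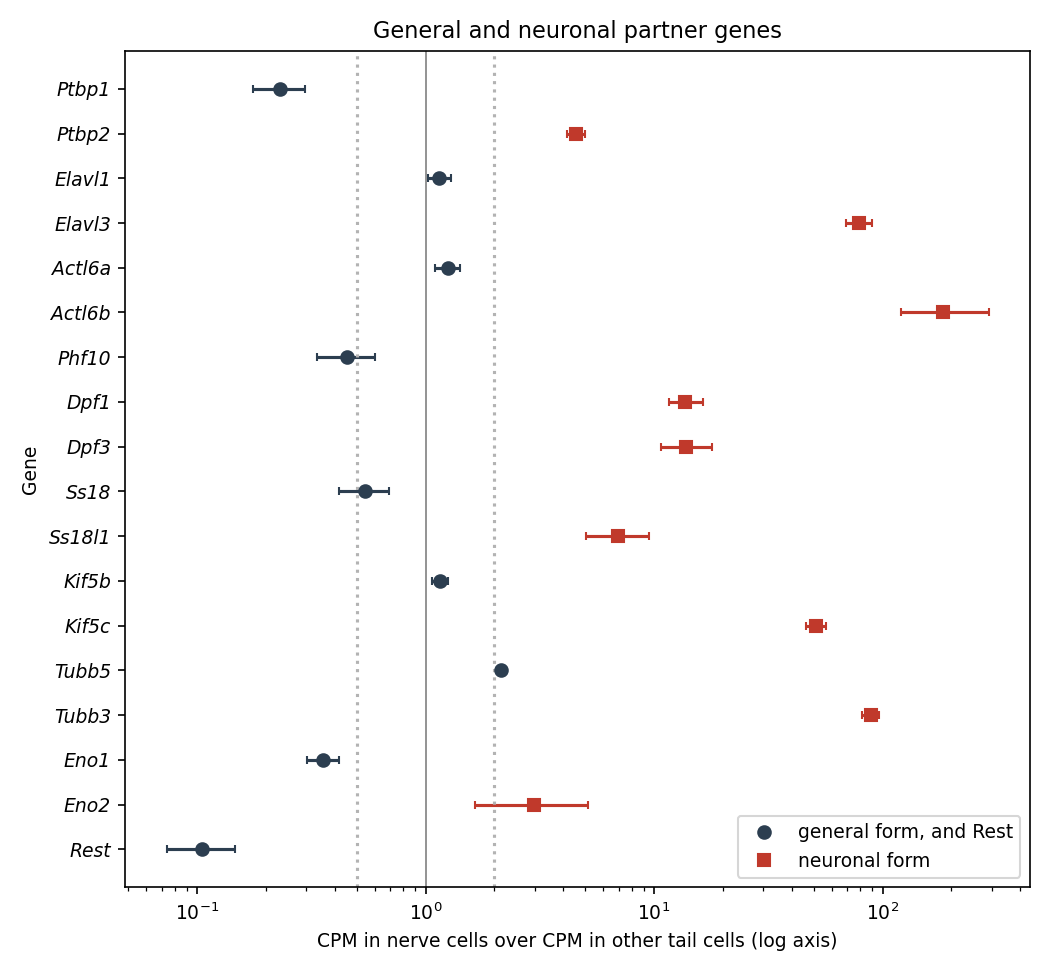
Ratio of CPM in nerve cells to CPM in the other tail cells on a log axis, with 95% conditional binomial intervals, for general genes and Rest (circles) and their neuronal forms (squares). The dotted lines mark 0.5 and 2. All 9 neuronal forms lay above 2. Of the general forms, Ptbp1 lay at 0.230 and Tubb5 at 2.14, and Rest lay at 0.105.

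Rest, the repressor of neuronal genes in other tissues, was found in 25 of 137 nerve cells, at 21.3 against 203 CPM. Rest binds an element named RE1, and the first 9 letters of its consensus, TTCAGCACC or GGTGCTGAA on the other strand, were searched in RefSeq promoter windows from 250 bases before to 50 bases after a start site. Windows were given for 8658 of 11448 tested genes. The letters occurred in 0.371% of all 32851 windows and in 0.403% of the windows of tested genes. They occurred in 0.747% of the windows of genes called higher in nerve cells and in 0.238% of those called lower. Among genes at least 10-fold higher the share was 1.83%, or 9 of 491 windows. The E-box CAGATG, read as CATCTG on the other strand, was found in 10.8% of tested windows, in 11.4% of those of the higher genes and in 12.5% of those of the lower genes. The E-box CAGCTG was found in 15.0%, 17.6% and 16.7%. The 9 RE1 windows of genes at least 10-fold higher belong to 8 genes. Of these, the 6 below are shown so that the element can be read beside the genes it lies near. In Unc13a, Ptprn2 and the non-coding C130071C03Rik the letters lie after the start site, and the first 2 of these are not shown. Each run is from GRCm38.p6, on the strand of the gene, with the RE1 letters in capitals.
Syn1, a synaptic vesicle protein, chrX:20921117-20921168, minus strand: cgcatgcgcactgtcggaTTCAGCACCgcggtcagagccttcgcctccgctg
Celsr3, an axon guidance cadherin, chr9:108825893-108825951, plus strand: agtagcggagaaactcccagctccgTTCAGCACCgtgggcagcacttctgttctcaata
Dner, a neuronal Notch ligand, chr1:84696338-84696396, minus strand: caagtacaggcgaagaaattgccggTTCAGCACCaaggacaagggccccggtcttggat
Nsg2, a neuronal endosome protein, chr11:32000474-32000532, plus strand: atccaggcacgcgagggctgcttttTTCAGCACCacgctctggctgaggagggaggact
Skor1, a corepressor of Lbx1, chr9:63147185-63147243, minus strand: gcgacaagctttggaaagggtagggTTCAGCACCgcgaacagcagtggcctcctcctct
C130071C03Rik, a long non-coding RNA, chr13:83728093-83728151, plus strand: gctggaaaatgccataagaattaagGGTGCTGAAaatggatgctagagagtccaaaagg

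Nsg2 was found in 132 cells and was 40.4-fold higher (35.3 to 46.4), and Dner was found in 131 cells and was 35.4-fold higher (31.0 to 40.5). Syn1 was found in only 39 cells and was 61.0-fold higher (35.1 to 112). Ptprn2, a protein of dense-core vesicles, had the highest ratio of the 8, at 182 (56.7 to 929), on 31 UMIs in nerve cells and 3 elsewhere. A match describes letters in a window and shows no binding.

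Transcripts that hold microRNA genes were also enriched. MicroRNA 9 is a neural microRNA, and its mature sequences in RefSeq are shown with the seed in capitals because all 3 of its genomic copies lie within transcripts of the nerve cells.
mmu-miR-9-5p: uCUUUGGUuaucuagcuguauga
mmu-miR-9-3p: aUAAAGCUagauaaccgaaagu
The copy Mir9-1 (GRCm38.p6, chr3:88215598-88215686) lies within Gm3764, which was 27.3-fold higher in nerve cells (22.2 to 33.7) and found in 107 of them. The copy Mir9-2 (chr13:83738814-83738885) lies within C130071C03Rik, which was 45.9-fold higher (38.0 to 55.8) and found in 113. The copy Mir9-3 (chr7:79505264-79505353) lies within Mir9-3hg, which was 30.8-fold higher (24.0 to 39.7) and found in 79. Transcripts named as hosts of the neuronal microRNA 124, Mir124a-1hg and Mir124-2hg, were 261-fold and 122-fold higher, and Mir124-2hg was found in 133 of 137 cells. Mature microRNAs were not measured by this assay.

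Nerve cells divided almost without overlap by transmitter. A cell was placed in the inhibitory class when it held a UMI of Gad1 or Gad2 (GABA synthesis), Slc32a1 (vesicular loading of GABA and glycine) or Slc6a5 (glycine uptake) and none of Slc17a6, the vesicular glutamate transporter. A cell with Slc17a6 and none of those 4 genes was placed in the excitatory class. This gave 75 inhibitory cells, 54.7% (46.0 to 63.3%), and 56 excitatory cells, 40.9% (32.6 to 49.6%). Both kinds were found in 2 cells and neither in 4. The inhibitory genes reached 1, 11 and 33 UMIs in the lowest, median and highest inhibitory cell, and Slc17a6 reached 1, 5 and 17 in the excitatory class. At 3000 UMIs a cell, 68 cells were inhibitory, 40 excitatory and 27 neither, so the excitatory share (29.2%) depended on depth more than the inhibitory share (49.6%). In the 193 blood cells of codes 6 and 12 at that depth, used as a background, 0% held Gad2 and 0.518% held Slc17a6, against 41.6% and 30.7% of nerve cells. Median depths before thinning were 8850 UMIs in blood and 11811 in nerve cells.

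**Figure D3:**
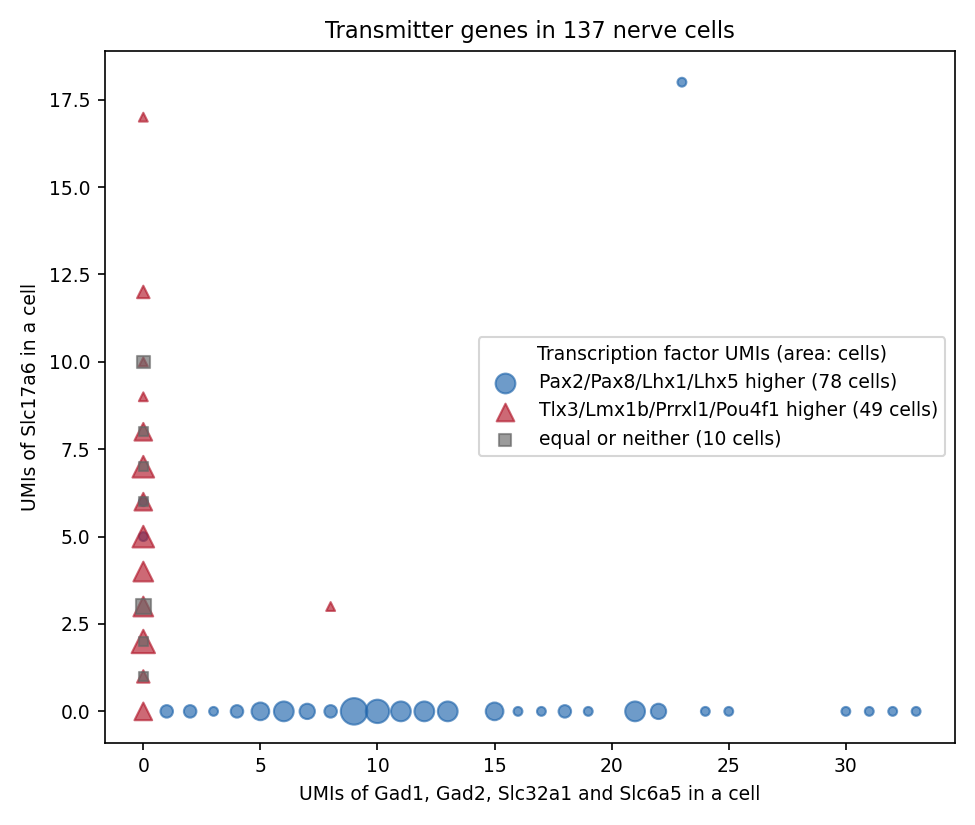
UMIs of the 4 inhibitory genes (x axis) against UMIs of Slc17a6 (y axis) in each of 137 nerve cells, with symbol area showing the number of cells at a point and symbol shape showing which set of 4 transcription factors had more UMIs. All but 2 cells lay on an axis, and every inhibitory cell is a circle, while 44 of 56 excitatory cells are triangles.

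GABA and glycine genes were found in the same cells. Gad2 and Slc6a5 were found together in 60 cells, with 13 cells holding Gad2 only and 2 holding Slc6a5 only. Slc6a5 was 500-fold higher than in the other tail cells (259 to 1106), and 1475-fold higher without the 38 neuron-like cells of other clusters. No interval was computed for the second ratio, which rests on few UMIs outside the nerve cells. Slc17a7, another vesicular glutamate transporter, had no UMI. Genes of acetylcholine and monoamine neurons were near 0, with Chat in 1 cell, Slc18a3 in 2 cells, and Dbh, Ddc, Slc6a2, Tph2, Slc6a4 and Fev without a UMI.

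Gm14204, a gene beside Slc32a1, was 633-fold higher (266 to 1973), or 1555-fold without the 38 neuron-like cells. The second ratio rests on few UMIs elsewhere, and no interval was computed for it. Gm14204 was found in 65 inhibitory and 0 excitatory cells. Its start site lies 35 bases from that of Slc32a1 on the opposite strand, and 59 cells held both. The stretch upstream of Slc32a1 that both promoter windows share is shown for this reason, on the strand of Slc32a1 with the bases from one start site to the other in capitals.
Slc32a1 and Gm14204, GRCm38.p6, chr2:158610674-158610758: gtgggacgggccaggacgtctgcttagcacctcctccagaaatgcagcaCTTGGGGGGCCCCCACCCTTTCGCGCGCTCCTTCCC
In RefSeq the whole span of Slc32a1 also reaches back over Gm14204 from a start further upstream, and the sources used here do not state how strand was used in counting, so their UMIs may not be fully separate. The same holds for C130021I20Rik and Lmx1b, found together in 41 cells. Gm2694 and Cbln1 lie 219 bases apart and were found together in 37 cells, and Lhx1os and Lhx1 lie 125 bases apart and were found together in 55.

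Transcription factors followed the transmitter classes. Of 10108 genes tested between them, 763 were at least 2-fold higher in inhibitory cells (7.55%) and 553 in excitatory cells (5.47%). Of 48 factors on 4 lists of spinal transcription factors 24 were tested, and 8 were higher in inhibitory and 11 in excitatory cells. Those lists and the transmitter genes are known to go together in the spinal cord, so the count describes these cells and is no independent evidence.

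In inhibitory cells, Pax2 gave 458 UMIs in 66 of 75 cells, against 3 UMIs in 3 of 56 excitatory cells, a ratio of 125 (42.7 to 610). Pax8 gave 370 UMIs in 63 inhibitory cells and 0 in excitatory cells, at least 101-fold higher. Lhx1 was 88.9-fold higher (42.9 to 222) and Lhx5 was 32.4-fold higher. Gbx1 was found in 36 inhibitory and 0 excitatory cells. Tfap2b, an AP-2 family factor, gave 480 UMIs in 42 inhibitory cells and 0 in excitatory cells. Ptf1a, which specifies this lineage in progenitors, had no UMI in any nerve cell.

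In excitatory cells, Tlx3 gave 382 UMIs in 39 of 56 cells, against 1 UMI in 1 inhibitory cell, an inhibitory to excitatory ratio of 0.00215. Lmx1b gave 211 UMIs against 2, and Pou4f1 gave 129 against 1. Prrxl1, also known as Drgx, gave 126 UMIs in 35 excitatory cells and 10 in 3 inhibitory cells. Ebf1, Ebf2 and Ebf3 were also higher in excitatory cells, at ratios of 0.387, 0.232 and 0.217, but were found in both classes.

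Lbx1 was shared. It gave 194 UMIs in 56 inhibitory cells and 143 in 36 excitatory cells, a ratio of 1.11. Zic1 was also found in both classes, in 52 inhibitory and 45 excitatory cells. Pax2 and Tlx3 were found in 71 and 46 nerve cells but together in only 5, of which 2 were the cells that held both kinds of transmitter gene. Pax2 and Lhx5 were found together in 66 cells, and Tlx3 and Lmx1b together in 40. Counted over Pax2, Pax8, Lhx1 and Lhx5 against Tlx3, Lmx1b, Prrxl1 and Pou4f1, all 75 inhibitory cells had more UMIs of the first set, and 44 of 56 excitatory cells had more of the second. The 4 cells with neither kind of transmitter gene all held factors of the excitatory set and none of the inhibitory set.

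**Figure D4:**
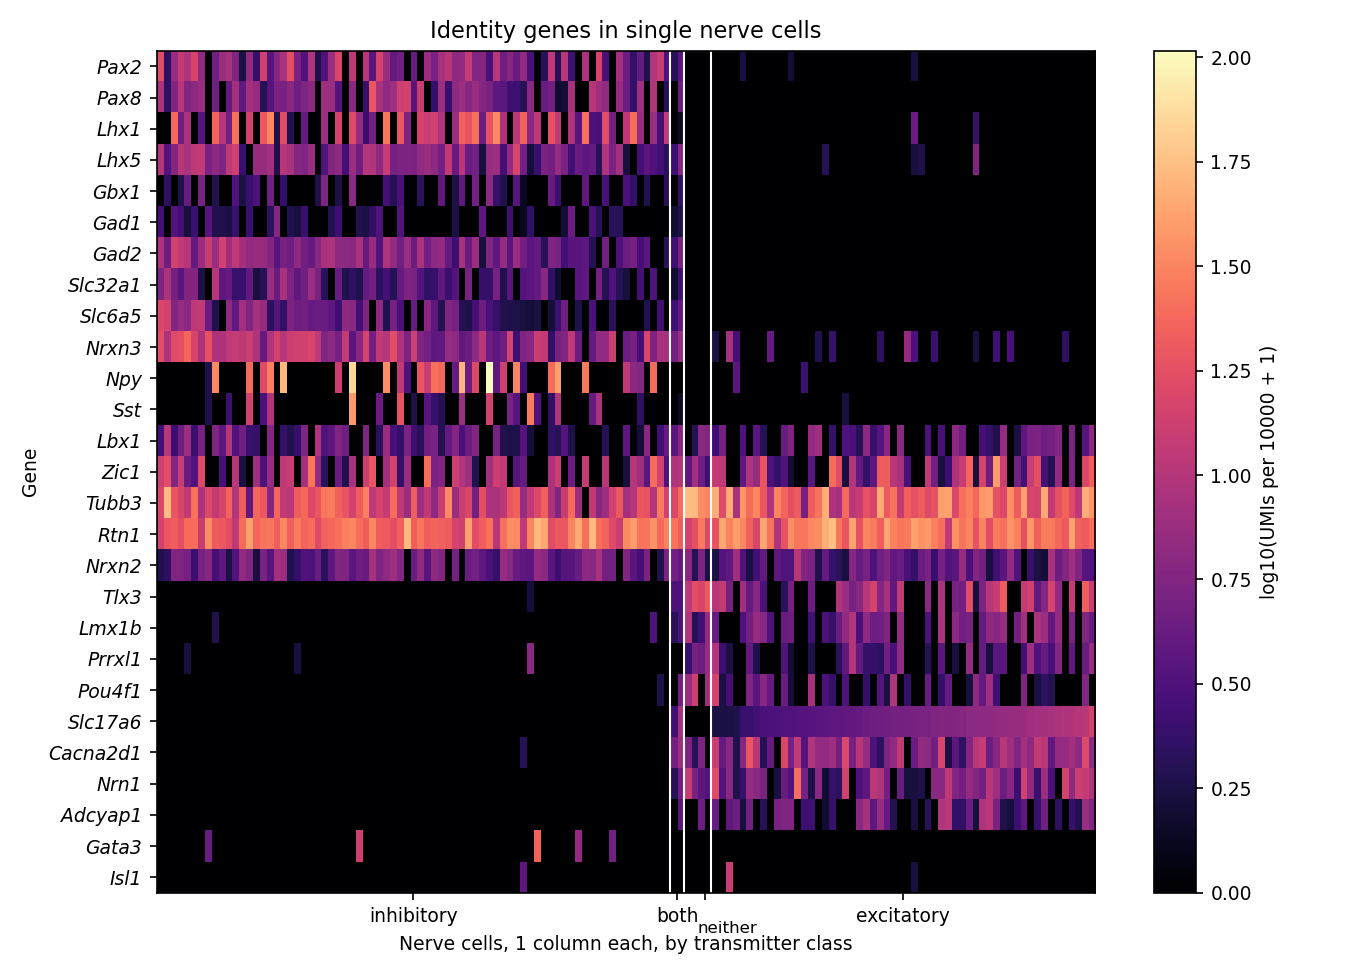
Each of the 137 nerve cells as a column, grouped by transmitter class, with the UMIs of 27 genes, scaled to 10000 per cell, on a log10(value + 1) scale. Pax2, Pax8, Lhx1 and Lhx5 lie mainly in inhibitory columns, in from 55 (Lhx1) to 72 (Lhx5) of 75. Tlx3, Lmx1b and Cacna2d1 lie mainly in excitatory columns, in from 38 (Lmx1b) to 54 (Cacna2d1) of 56. Lbx1, Zic1, Tubb3, Rtn1 and Nrxn2 are found in both.

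The lists of synapse, axon and cytoskeleton genes were counted in the same way, beside 7.55% of all tested genes higher in inhibitory cells and 5.47% higher in excitatory cells. Of 20 tested genes of synaptic vesicles and release, 2 were higher in inhibitory cells and 2 in excitatory cells. Cplx2, 1 of those 2 excitatory calls, moved from a ratio of 0.389 to 0.637, inside 2-fold, without the deepest nerve cell. Sema6d, not called, moved from 1.52 to 3.40 without it. Of 12 tested synaptic adhesion genes, 3 were higher in inhibitory and 2 in excitatory cells, and of 24 tested axon guidance genes, 6 and 2. Of 18 tested cytoskeleton genes, none was higher in inhibitory cells and 3 were higher in excitatory cells, and of 15 tested channel genes, 2 and 3. Nrxn3 gave 709 UMIs in 73 inhibitory cells and 59 in 14 excitatory cells, 9.87-fold higher (7.56 to 13.1). The deepest cell of the group, which is excitatory, held 29 of those 59 UMIs, and without it Nrxn3 was 18.4-fold higher (12.8 to 27.5). Its relative Nrxn2 was not called, at 296 against 207 UMIs and a ratio of 1.17 (0.980 to 1.41). Cacna2d1, a calcium channel subunit, was found in 54 excitatory cells and 1 inhibitory cell, while its relative Cacna2d3 was 19.3-fold higher in inhibitory cells. Receptors favoured the inhibitory class in 9 of 18 tested genes, with the kainate receptor Grik2 at 9.07-fold (6.06 to 14.1), and favoured the excitatory class in 1. Lamp5, a membrane protein of inhibitory neurons, was found in 73 inhibitory cells at 781 CPM against 6.94 CPM. The netrin receptor gene Unc5c was 13.9-fold higher in inhibitory cells. Nefl gave 668 UMIs in excitatory and 47 in inhibitory cells, and Nrn1, a secreted growth factor of neurites, was found in 51 excitatory cells and no inhibitory cell. Cbln1, a secreted synapse organiser that binds neurexins, gave 99 UMIs in excitatory cells and 2 in inhibitory cells.

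Neuropeptides differed in how much of a class they covered. Npy, encoding neuropeptide Y, was found in 31 of 75 inhibitory cells at 785 UMIs and in 2 excitatory cells at 5 UMIs, and reached 151 UMIs in 1 cell. Sst, encoding somatostatin, was found in 23 inhibitory cells and 1 excitatory cell. Both were found together in 15 cells. Pnoc, encoding prepronociceptin, was found in 27 inhibitory cells and 1 excitatory cell. Adcyap1, encoding the peptide PACAP, was found in 41 of 56 excitatory cells and in no inhibitory cell, and 33 of its 43 cells also held Tlx3. Tac1 gave 41 UMIs, 39 of them in 1 cell, so its level says little of the group. Pdyn, Calca, Nts, Cck and Nmu had no UMI, and Penk was found in 1 cell.

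**Figure D5:**
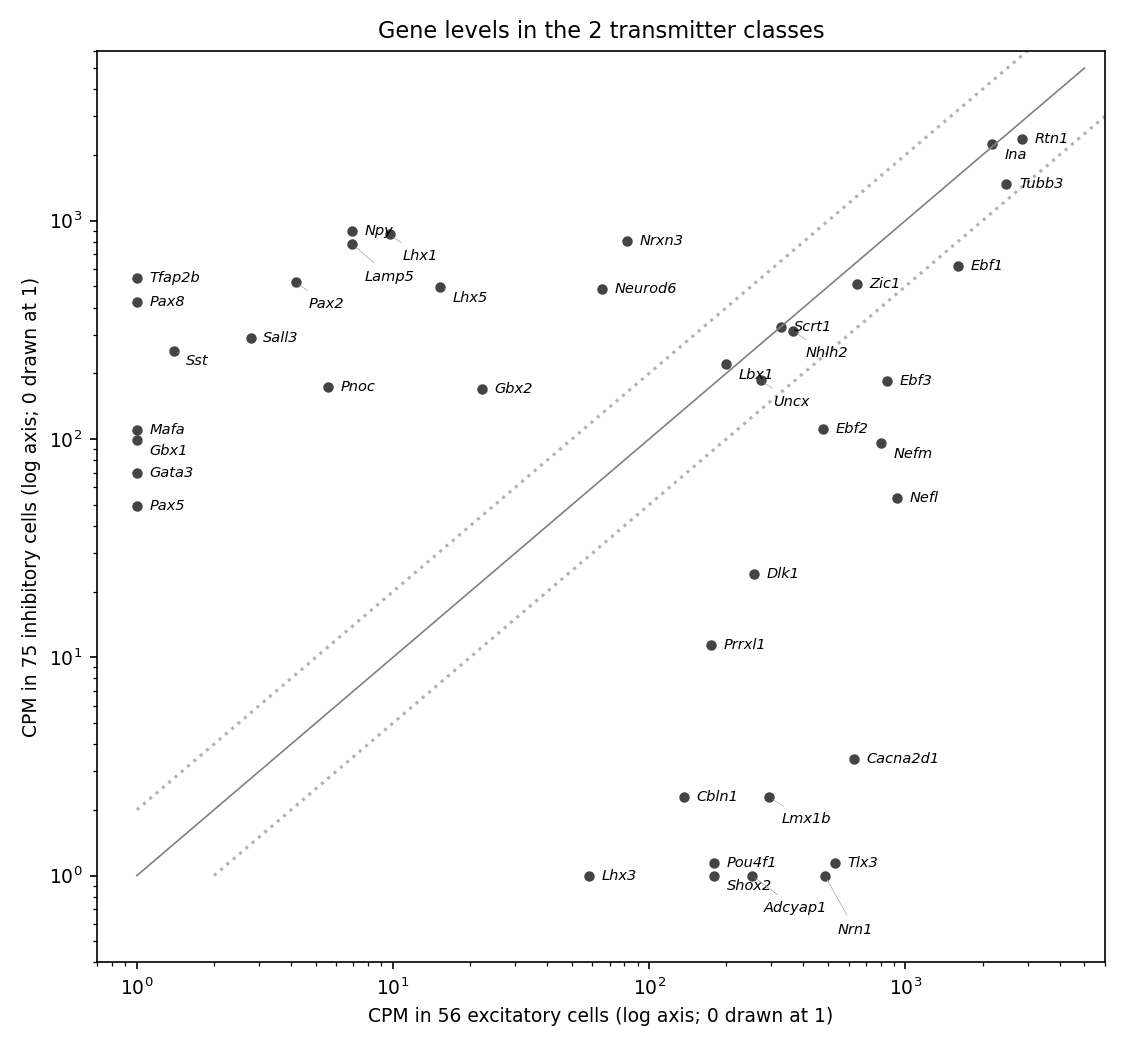
CPM in 75 inhibitory cells (y axis) against CPM in 56 excitatory cells (x axis) for 41 genes on log axes, with 0 drawn at 1, the solid line marking equal levels and the dotted lines 2-fold. Rtn1, Ina, Scrt1 and Lbx1 lie between the dotted lines, while Pax2, Npy and Lamp5 lie far above them and Tlx3, Nrn1 and Cacna2d1 far below.

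A few cells carried factors of other spinal lineages. Gata3 and Tal1, which mark the ventral inhibitory V2b interneurons, were found together in 5 cells, all inhibitory, and none of the 5 held Pax2. Lhx2 and Barhl2, which mark the dorsal dI1 interneurons, were found together in 2 excitatory cells. None of the cells with Gata3 or Lhx2 held Lbx1, which was present in 97 of the 137 nerve cells. Mafa was found in 12 inhibitory cells and Shox2 in 10 excitatory cells, and neither gene was found in the other class. The motor neuron factor Mnx1 had no UMI.

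Of 8 tested genes of the sensory ganglion list, 4 were called higher and 3 lower than in the other tail cells. Over all tested genes those shares were 21.0% and 22.7%. Isl1 and Prph were found in 3 and 4 cells. Isl1 was found in 3 nerve cells, and 1 of these held 43 of its 52 UMIs. That cell, the deepest of the group at 38209 UMIs, also held 66 UMIs of Prph, 81 of Gal and 15 of Tlx3, and its class was excitatory. It carried 66 of the 95 Prph UMIs and 81 of the 98 Gal UMIs of all nerve cells, so the group levels of these genes rest on it. The autonomic genes Phox2a, Hand2 and Dbh had no UMI in 137 cells, which allows a share of cells with a UMI of up to 2.19% each. Chrna3, a nicotinic receptor subunit listed with them, was found in 26 cells.

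Code 14 held 38 cells and was set beside the nerve cells as the cluster highest in glial genes. Of 11849 genes tested, 2388 were at least 2-fold higher in nerve cells (20.2%) and 3039 at least 2-fold lower (25.6%). Of 18 tested glial genes, 17 were lower in nerve cells and none was higher. Fabp7, a lipid-binding protein of glia, stood at 11.9 CPM in nerve cells and 5001 CPM in code 14, and Ednrb, the endothelin receptor of neural crest cells, at 0.593 and 1634 CPM. Sox10, which specifies peripheral glia, stood at 1.78 and 383 CPM, and Erbb3, the neuregulin receptor of Schwann cells, at 0 and 403 CPM. The central glial genes Olig1, Olig2 and Gfap had no UMI in either cluster. Neuron genes ran the other way, with Ina at 2172 against 4.70 CPM and Elavl3 at 726 against 1.57 CPM. Nrxn2 had no UMI in code 14, and Stmn3 stood at 774 against 1.57 CPM. Gap43, which is found in growing axons and in Schwann cell precursors, was present in both, at 346 and 662 CPM. Mki67 stood at 6.52 and 420 CPM.

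Hox genes, which set position along the body axis, were high in nerve cells. Of 35 tested Hox genes, 27 were called higher and 4 lower against the other tail cells, beside backgrounds of 21.0% and 22.7%. All 9 tested genes of the Hoxb cluster were higher, led by Hoxb8 at 1180 against 13.8 CPM, a ratio of 85.6 (76.9 to 95.4), found in 125 cells. Hoxb6 was 47.2-fold higher and Hoxb9 13.1-fold higher. Of the terminal genes, Hoxc13 was found in 125 cells at 371 against 129 CPM and Hoxb13 in 73 cells at 3.91-fold (3.37 to 4.52). Hoxa13 and Hoxd13 were lower, at ratios of 0.377 (0.233 to 0.580) and 0.279 (0.112 to 0.580).

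Scx, the tendon factor that drives the reporter of these embryos, gave 402 UMIs in 28 nerve cells, at 238 CPM against 999 CPM in the other tail cells. The highest cell held 253 of these UMIs. That cell held 13 UMIs of Pax2 and 32 of Tubb3 and none of Col1a1, Col3a1 or any other gene of the connective tissue list. At 3000 UMIs a cell, 8.03% of nerve cells held an Scx UMI against 4.66% of blood cells. At full depth Scx gave 394 UMIs in 22 inhibitory cells and 8 in 6 excitatory cells, and the highest cell, which was inhibitory, held 64.2% of the 394. The reporter transcript ScxGFP gave 5 UMIs in 3 nerve cells.

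In the culture, 2 of 7821 cells carried the nerve code, at 6694 and 4063 UMIs. They held 5 and 7 UMIs of Tubb3 and 7 and 4 of Elavl3. One of them held 5 UMIs of Rtn1 and the other none. Neither held a UMI of Nrxn2, Gad2, Slc17a6, Pax2, Tlx3 or Lbx1. Across whole libraries, Nrxn2 stood at 24.8 CPM in the tail, 5.43 CPM in the culture and 2.60 CPM in the paraxial mesoderm, and Rtn1 at 158, 5.88 and 4.74 CPM. The libraries differ in their cell types and depth, and no test compared them.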

How the data were processed

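Tails of embryonic day 14.5 ScxGFP embryos were dissociated with trypsin and collagenase, dead cells were removed with Annexin V, and libraries were made with 10x 3′ version 3 chemistry and sequenced by the authors. The deposited tables hold whole-number UMI counts per gene and cell, made by the authors with cellranger 3.1.0, with the cluster code of each cell in the first row. Per the methods, the authors ignored reads with several alignments, removed cells above 7.5% mitochondrial counts and the lowest and highest 2%, and clustered integrated libraries in Seurat 3.0. The genome build of the counts is not given in the sources used here.

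Counts were summed over the cells of a group and expressed as CPM. Intervals of levels are exact Poisson, of shares Clopper-Pearson and of ratios conditional binomial, all at 95% (SciPy 1.17.1), and a count of 0 was set to 3 counts for a bound. For shares, cells were thinned to 3000 UMIs, which left out no nerve cell, 6 blood cells and 1 cell of code 14. Doublets were called with Scrublet in Scanpy 1.11.5 at an expected rate of 6% and kept in the main results. Calls rest on the ratio alone, so against the 38 cells of code 14 genes with few UMIs can pass by counting error. Other scalings, detection filters, fold thresholds, doublet and cell filters and class thresholds were tried as alternatives. Genes named by rule were the list members, the 10 highest and 5 lowest ratios to the other tail cells and the 5 highest and lowest ratios to code 14 (at least 100 UMIs over both groups and 50 CPM in the higher), and the 5 highest and lowest between transmitter classes (at least 50 UMIs). Other named genes were chosen after their values were seen. The members and gene lists were chosen with earlier results of these data known. Promoter windows (8658 of 11448 tested genes) and microRNA sequences are from RefSeq, GRCm38.p6. Results of some listed genes are not reported here.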

Additional observations from a re-analysis of the deposited data

How the results depend on the processing

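Directions of the 311 called genes among those named were kept under each of 8 changes of scaling, cells or comparison group, except for genes of red blood cells. Against the other tail cells without the blood clusters, Alas2 (ratio 2.58), Hba-a1 (2.01), Hba-a2 (1.79), Hbb-bs (2.56) and Hbb-bt (2.21) turned from lower to higher. These ratios rest on 2 nerve cells, which held all 40 Alas2 UMIs and 7264 of 7439 Hbb-bs UMIs. Without that pair, in a comparison added after seeing the data, Hba-a1 (0.0516), Hba-a2 (0.0684), Hbb-bs (0.0617) and Hbb-bt (0.0487) were lower again, and Alas2 had no UMI. Without cells under 1000 genes, which removes most blood cells, Alas2 (1.16), Hba-a1 (1.02), Hbb-bs (1.54) and Hbb-bt (1.16) turned likewise. Hoxc5, Robo1, Tubb5 and Epha4 each dropped inside 2-fold under at least 1 change. Of the genes not called, Cbln2 and Gria3 passed 2-fold higher, and Foxp1, Isl1, Ntn1, Ss18 and Tubb4b were among those that passed 2-fold lower, under at least 1 change. Median-of-ratios size factors moved the median log2 ratio of all genes from 0.05 to -0.18 and the calls to 1972 genes higher and 3050 lower. At 4-fold, 1156 genes were higher and 1590 lower than in the other tail cells, and 1084 were higher than in code 14. With no filter beyond 1 UMI, 5233 genes were higher and 4265 lower, since more genes were tested. The excitatory share fell to 29.2% at 3000 UMIs a cell, and the nerve cell share rose to 8.53% with the neuron-like cells of other clusters, an alternative chosen after seeing the data. Of 24 tested spinal factors, 19 were called between the transmitter classes, and all 19 kept their direction under each of 6 changes. Without the deepest nerve cell, an alternative chosen after seeing the data, Nefm moved from a ratio of 0.119 to 0.216 between the classes, Scn9a from 0.0350 to 0.120 and Sncg from 0.00424 to 0.0147, and Cplx2 from 0.389 to 0.637, inside 2-fold, while Sema6d moved from 1.52 to 3.40. No paired analysis was possible because each group is 1 library. Genes under about 10 UMIs in the 137 cells have wide intervals, and rare cell classes rest on 2 to 6 cells.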

Other observations

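Genes called higher in nerve cells spanned more of the genome than the others. The median RefSeq span was 37.2 kb for the 2159 higher genes with a span (89.7% of them), 24.5 kb for the lower genes and 25.5 kb for all tested genes. Between the transmitter classes the median span was 39.7 kb for genes higher in inhibitory cells and 23.8 kb for those higher in excitatory cells. Whether span affects counting in this assay was not tested.

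The 2 cells with both kinds of transmitter gene held 23506 and 18939 UMIs, above the median of either class, and neither was called a doublet. The first held 23 UMIs of the inhibitory genes and 18 of Slc17a6, with 6 UMIs of Pax2 and 5 of Tlx3. The second held 8 and 3, with 2 of Pax2 and 4 of Tlx3. Scrublet called only 9 of 2052 tail cells at an expected rate of 6%. The missing call therefore does not show that these 2 are single cells. Igfbpl1, Meis1 and Tmem163 were higher in excitatory cells, with 1257, 253 and 216 UMIs against 655, 48 and 2 in inhibitory cells, and Klhl14, Fst and Sall3 were higher in inhibitory cells, with 65, 83 and 255 UMIs against 0, 0 and 2. These genes were chosen after their values were seen.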
